A study of Mus musculus with 6 samples.

Results

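The SR family genes are the 10 rows of the deposited mouse expression table named Srsf1, Srsf2, Srsf3, Srsf4, Srsf5, Srsf6, Srsf7, Srsf9, Srsf10 and Srsf11, out of 55487 genes in the table. They were chosen by name as serine/arginine-rich splicing factors. These genes and the other splicing lists below were chosen with earlier results of these data known. All 10 were among the 15298 genes with enough counts to be tested. The RNA came from bone marrow cells at the top of the blood lineage, called LT-HSCs (hematopoietic stem cells with long-term repopulating capacity) and sorted as Lineage-, Sca-1+, c-Kit+, Flk2- and CD34-. All mice were wild type and had not been irradiated. One group had received saline (3 libraries) and the other carnosine (3 libraries), a dipeptide of beta-alanine and histidine. The dose, route and duration of treatment and the age, sex and strain of the mice were not given in the sources used here. The labels do not say whether the 3 libraries of a group came from separate mice, so the p-values measure the spread between these libraries, which may be technical.

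An SR protein carries RNA recognition motifs that bind short sequences in exons, and a tail of arginine and serine repeats that recruits the U1 and U2 machinery to nearby splice sites. SRPK kinases in the cytoplasm and CLK kinases in the nucleus phosphorylate that tail, and the importer transportin-3 (Tnpo3) carries the phosphorylated protein into the nucleus. Several SR proteins limit their own amount by promoting inclusion of a poison exon, which sends their transcript to nonsense-mediated decay, and some accompany spliced mRNA to the cytoplasm. SR genes are therefore usually transcribed into several forms, and the annotation used here (GENCODE M21, build GRCm38) lists 85 transcripts for the 10 genes, from 4 to 19 per gene. Of the 10 genes, 9 have an annotated decay transcript (all but Srsf10) and 8 an annotated retained intron (all but Srsf9 and Srsf10). The deposited values are one count per gene and do not separate these forms.

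Promoter sequences are shown for Srsf3, Srsf7 and Srsf6, the 3 genes called lower in every alternative analysis below. Each is the 250 bases before the RefSeq transcription start (GRCm38.p6), printed 5′ to 3′ on the gene's strand. They lie at chr17:29032410-29032659 on the plus strand for Srsf3, chr17:80207306-80207555 on the minus strand for Srsf7 and chr2:162931258-162931507 on the plus strand for Srsf6. Capitals mark, on either strand, the GC box GGGCGG, the CCAAT box CCAAT, the TATA box TATAAA and the ETS core CCGGAAG.
Srsf3: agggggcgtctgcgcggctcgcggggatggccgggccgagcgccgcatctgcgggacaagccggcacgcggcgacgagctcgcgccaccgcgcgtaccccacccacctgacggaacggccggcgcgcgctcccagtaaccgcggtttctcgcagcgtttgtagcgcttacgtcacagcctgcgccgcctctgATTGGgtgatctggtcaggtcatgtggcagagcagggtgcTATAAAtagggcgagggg
Srsf7: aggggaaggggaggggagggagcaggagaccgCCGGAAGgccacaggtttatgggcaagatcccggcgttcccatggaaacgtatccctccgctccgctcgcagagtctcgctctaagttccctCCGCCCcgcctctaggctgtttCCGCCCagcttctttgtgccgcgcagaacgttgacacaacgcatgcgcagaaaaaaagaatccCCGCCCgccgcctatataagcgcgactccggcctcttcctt
Srsf6: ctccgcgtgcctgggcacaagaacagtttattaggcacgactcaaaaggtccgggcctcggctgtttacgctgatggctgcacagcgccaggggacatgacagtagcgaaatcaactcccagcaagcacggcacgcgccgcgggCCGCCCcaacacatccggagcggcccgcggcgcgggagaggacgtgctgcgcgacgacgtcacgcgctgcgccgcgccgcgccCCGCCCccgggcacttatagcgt

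All 10 genes had a promoter in the RefSeq table, and all were rich in G and C. Their windows held 56.8% to 77.2% G or C and 17 to 37 CpG pairs, against medians of 52.0% and 6 over 27025 windows of the same length. GGGCGG was found in 9 of the 10 windows, all but that of Srsf3, and in 32.94% of all windows. Srsf3 instead had CCAAT and TATAAA, as did Srsf2. CCAAT was found in 3 members (Srsf2, Srsf3 and Srsf10) against 34.46% of windows, and TATAAA in those 2 against 12.97%. CCGGAAG was found in Srsf4, Srsf5, Srsf7 and Srsf11 (4 of 10, against 7.05% of windows). The E-box CACGTG (in 6.05% of windows), the cAMP response element TGACGTCA (1.62%), the AP-1 site TGAGTCA (4.43%) and the NRF1 palindrome (0.78%) were found in no member. Each motif was searched on both strands, and none of the marked motifs contains another. No set of these letters was shared by the 4 genes called lower and absent from the other 6. A match describes the letters of the window only.

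Library totals ran from 10304539 to 13251332 counts. The first principal component of the libraries (48.2% of the variance) separated the groups. Mitochondrial transcripts took 2.68% to 2.83% of counts in saline and 3.10% to 3.19% in carnosine. The CPM (counts scaled to a common library total) of 10 stem cell markers summed to 1121 to 1153 in saline and 1115 to 1264 in carnosine, with 1 marker called higher (Mecom). Much of that sum was Kit (means of 546 and 530 CPM). The 1264 was carnosine library 1, where Hlf stood at 361 CPM, against 205 to 222 CPM in every other library. Flt3, which encodes Flk2, and Cd34 summed to 1666 to 1685 and 1618 to 1653 CPM, so their RNA was read although the sort excluded the proteins. Among other lineages, 7 neutrophil markers summed to 546 to 563 against 332 to 337 CPM, with Elane and Mpo called lower. That sum was mostly Mpo (means of 516 and 306 CPM). The other 5 neutrophil markers (S100a8, S100a9, Ngp, Ltf and Camp) were low, overlapped between groups and had means that were higher in carnosine, with Camp at 0 in 2 saline libraries. The 5 erythroid markers summed to 36.1 to 46.1 CPM in saline and 92.1 to 95.1 in carnosine (3 called higher), and the 9 B and plasma cell markers to 174 to 247 and 370 to 611 CPM (2 higher, 3 lower), mostly Jchain (means of 136 and 456 CPM). The 5 monocyte markers summed to 54.3 to 65.3 and 37.3 to 40.6 CPM (1 lower, Csf1r). The 6 T and NK cell markers summed to 12.4 to 14.2 and 10.0 to 12.4 CPM (1 lower). The 4 megakaryocyte markers spanned 73.8 to 77.5 and 69.0 to 75.8 CPM (1 lower), and the 4 stromal markers 77.3 to 89.8 and 80.8 to 93.9 CPM (1 higher). The stem cell, megakaryocyte and stromal sums overlapped between groups and the T and NK cell sums nearly touched. The mitochondrial share and the sums of Flt3 with Cd34 and of the neutrophil, erythroid, B and plasma cell and monocyte markers did not overlap. Their part in the SR results was not tested. Flt3 alone was lower in every carnosine library but was not called (edgeR adjusted p = 0.0503), and Cd34 overlapped between groups. In sorted bulk cells, fewer cells of a kind and less RNA per cell cannot be told apart.

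Srsf3, Srsf7, Srsf6 and Srsf5 RNA fell after carnosine, with mean CPM changes of -22.2%, -20.1%, -11.4% and -7.22%. None of the 10 rose, and the other 6 were not called. A gene was called when edgeR's quasi-likelihood test gave an adjusted p under 0.05 after Benjamini-Hochberg adjustment over all 15298 genes. The count of 4 lower stands beside 8.39% of all genes called lower, and 12.2% called lower among the 4456 genes within the same range of average level. The count of 0 higher stands beside 9.51% of all genes and 17.9% in that range. At an unadjusted p under 0.05, 7 members were lower and 1 was higher. Many genes passed that level: Srsf4, at an unadjusted edgeR p of 0.0363, ranked 4521 among the 15298 genes. At least 4521 genes, in either direction, thus stand behind this count and the unadjusted counts of the other lists below. DESeq2 called 3 lower (without Srsf5) and 0 higher, and limma-voom 4 lower and 0 higher. Over all 15298 genes, DESeq2 called 764 lower and 772 higher, and limma-voom 1291 lower and 1465 higher. The median log2 fold change (carnosine over saline) was -0.11 over the 10 members and 0.00 over all genes tested, and 8 of the 10 were negative.

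The 10 genes together took 0.329%, 0.328% and 0.330% of all counts in saline libraries 1 to 3 and 0.293%, 0.302% and 0.290% in carnosine libraries 1 to 3. Their summed level was 3290, 3287 and 3304 CPM in saline and 2939, 3036 and 2911 CPM in carnosine. The saline sums were nearly equal and every carnosine sum lay below them, with a log2 ratio of the group means of -0.15. Because highly read members weigh most in a sum, this value mainly follows Srsf5, Srsf6, Srsf2, Srsf7 and Srsf3. The plot of CPM by library shows each gene.

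**Figure D1:**
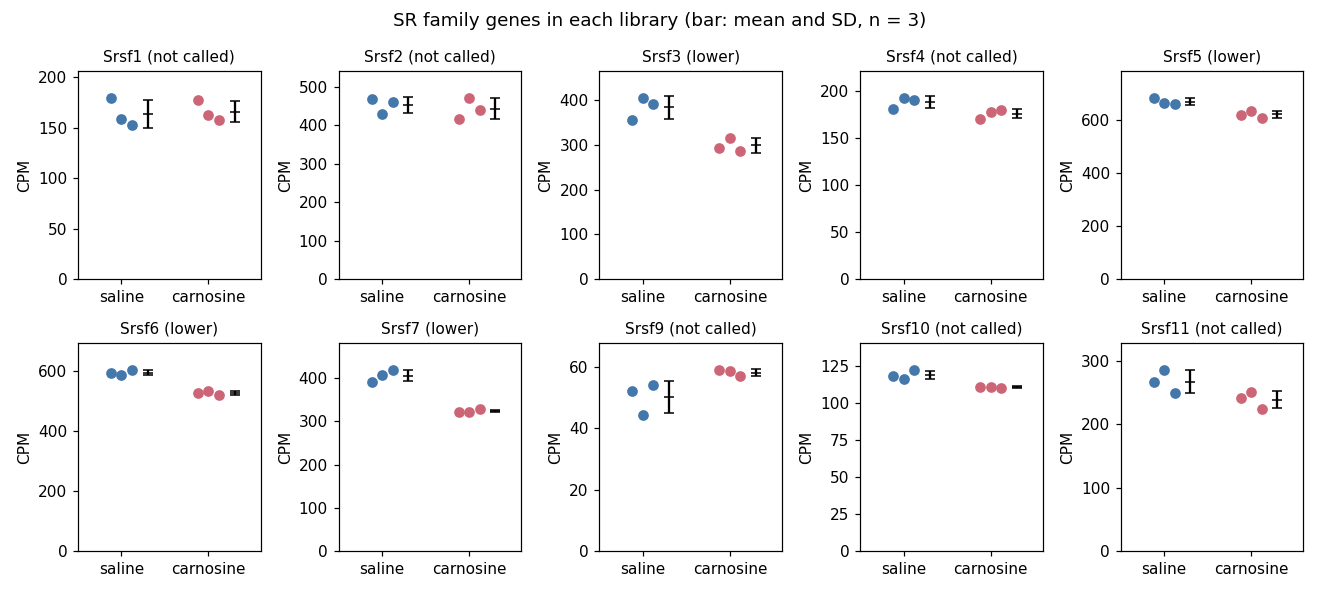
CPM of the 10 SR family genes (vertical axes, from 0) in the saline and carnosine groups, 3 libraries each; each point is 1 library and the bar gives the mean and SD. The carnosine points of Srsf3, Srsf4, Srsf5, Srsf6, Srsf7 and Srsf10 all lie below the saline points, and those of Srsf9 all lie above.

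Srsf3 and Srsf7 showed the largest falls. Both proteins shuttle between nucleus and cytoplasm and serve as adaptors that hand mRNA to the export receptor NXF1. Srsf3 (ENSMUSG00000071172, chr17:29032628-29043373, plus strand) was read at 355, 405 and 391 CPM in saline and 294, 316 and 286 CPM in carnosine. All carnosine libraries were below all saline libraries. Its log2 fold change was -0.36 (SE 0.06, edgeR adjusted p = 0.00517), a fall in mean CPM from 384 ± 25.5 to 298 ± 15.9 (SD, n = 3 each). Srsf7 (ENSMUSG00000024097, chr17:80200080-80207307, minus strand) was read at 392, 406 and 418 CPM in saline and 322, 322 and 327 CPM in carnosine. The carnosine libraries were nearly equal, and the groups were far apart relative to their spread. Its log2 fold change was -0.32 (SE 0.03, edgeR adjusted p = 0.000498), and its p ranked 235 among the 15298 genes, ahead of every other member. Both genes were called lower in all 18 alternative analyses.

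Srsf3 has near-identical processed pseudogenes, copies of its mRNA inserted elsewhere in the genome, and reads were counted for them too. The table holds 4 copies with at least 95% identity to Srsf3 over at least 200 bases. The most read was Gm9761 (chr3:116560935-116561426), which matches the Srsf3 coding sequence at 99.6% over 492 bases. The window below shows why reads of these loci are hard to separate. It covers positions 203 to 292 of the Srsf3 coding sequence (GENCODE M21 transcripts), counted from 1 at its first base, and the capital letter marks the only difference in it, G248A from Srsf3 to Gm9761.
Srsf3: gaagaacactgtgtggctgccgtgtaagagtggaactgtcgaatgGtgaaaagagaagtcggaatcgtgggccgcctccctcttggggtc
Gm9761: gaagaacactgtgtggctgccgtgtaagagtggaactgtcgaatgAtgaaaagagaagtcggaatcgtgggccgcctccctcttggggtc
The only other difference over the 492 bases was C469T.

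Gm9761 had 1056, 962 and 1254 counts in saline and 1182, 1124 and 1363 counts in carnosine. Its CPM ranges overlapped between groups, and its log2 fold change of 0.09 was not called (edgeR adjusted p = 0.264). Srsf3-ps (chr11:98624351-98625661), identical to Srsf3 at 98.3% over 1298 bases, had 265, 287 and 334 counts in saline and 372, 323 and 379 in carnosine. In CPM its carnosine libraries were all above the saline libraries, but the log2 fold change of 0.20 was not called (SE 0.07, edgeR adjusted p = 0.0891). The other 2 copies had at most 19 counts in a library. The 4 copies held 26.5%, 23.2% and 23.7% of the summed counts of Srsf3 and its copies in saline, and 30.7%, 30.6% and 31.9% in carnosine. The share assigned to copies was thus higher in every carnosine library. With the copies added, a calculation chosen after seeing the data, the sum was 484, 527 and 513 CPM in saline and 424, 456 and 419 CPM in carnosine. The groups still did not overlap, and the sum was lower by a log2 fold change of -0.23 (edgeR adjusted p = 0.0116, SE 0.04), smaller in size than the -0.36 of the Srsf3 row alone. How the authors assigned reads that match several loci was not given in the sources used here. The size of the Srsf3 fall is therefore uncertain, and these values need not bound it.

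**Figure D2:**
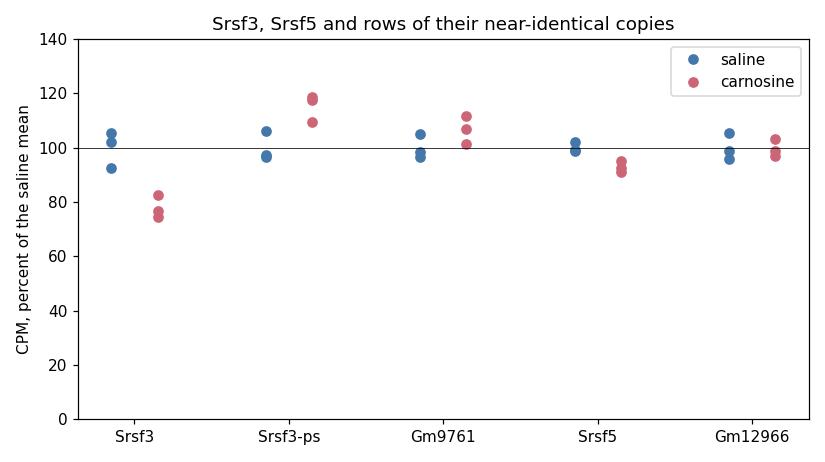
CPM of Srsf3, its copies Srsf3-ps and Gm9761, Srsf5 and its copy Gm12966, as a percent of the saline mean of each row (vertical axis, from 0); each point is 1 library. Carnosine points lie below saline for Srsf3 and Srsf5, above saline for Srsf3-ps, and overlap saline for Gm9761 and Gm12966.

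Srsf4, Srsf5 and Srsf6 are closely related SR proteins that each carry a canonical RNA recognition motif and a divergent one. Srsf6 (ENSMUSG00000016921, chr2:162931528-162937121, plus strand) was read at 594, 587 and 602 CPM in saline and 528, 532 and 520 CPM in carnosine. The coefficients of variation were 1.29% and 1.13%, about the counting error, and the groups did not overlap. Its log2 fold change was -0.18 (SE 0.02, edgeR adjusted p = 0.00202), a fall of 11.4% in mean CPM, from 594 ± 7.68 to 527 ± 5.93 (SD, n = 3 each), and it was called in all 18 alternatives.

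Srsf5 (ENSMUSG00000021134, chr12:80945504-80950507, plus strand), the most read member by counts, gave 682, 662 and 661 CPM in saline and 618, 635 and 609 CPM in carnosine. The highest carnosine library came close to the lowest saline library without reaching it. The log2 fold change was -0.11 (SE 0.03, edgeR adjusted p = 0.0245). This call was fragile. It was lost in 8 of 18 alternatives, among them DESeq2 (adjusted p = 0.236) and edgeR without saline library 1, 2 or 3 (0.073, 0.0584 and 0.0507) or carnosine library 1 or 3 (0.07 and 0.0767), and kept without carnosine library 2 (0.0335). A processed copy, Gm12966 (chr4:129899093-129899902), matches Srsf5 at 98.6% over 813 bases and had 2154, 2352 and 2818 counts in saline and 2580, 2323 and 2769 in carnosine, with a log2 fold change of 0.00 (edgeR adjusted p = 0.956). The sum of Srsf5 and this copy changed by -0.08 on the log2 scale (SE 0.02, edgeR adjusted p = 0.0491).

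Srsf4 (ENSMUSG00000028911, chr4:131873617-131901706, plus strand) was read at 181, 193 and 191 CPM in saline and 171, 178 and 180 CPM in carnosine. The groups did not overlap, but the gap was small beside the spread, and the log2 fold change of -0.10 was not called (SE 0.04, edgeR adjusted p = 0.123). An unclassified transcript on the same strand inside the Srsf4 locus, A930004J17Rik, was read at 20.3, 20.9 and 24.3 CPM in saline and 16.9, 17.0 and 14.6 CPM in carnosine. Its log2 fold change was -0.44 (SE 0.10, edgeR adjusted p = 0.0261). That call was lost without saline library 2 or 3 or any 1 carnosine library (edgeR adjusted p from 0.0516 to 0.0790).

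Srsf10 and Srsf11 act less like general activators. Srsf10 represses splicing when its tail is dephosphorylated, and Srsf11 interacts with the U2AF factor at the 3′ splice site. Srsf10 (ENSMUSG00000028676, chr4:135855747-135869908, plus strand) was read at 118, 117 and 122 CPM in saline and 111, 111 and 110.2 CPM in carnosine. The carnosine libraries were almost equal and lay below saline, but the log2 fold change of -0.10 was not called (SE 0.04, edgeR adjusted p = 0.0873). Processed copies of Srsf10 were Gm5446 (98.4% identity over 772 bases) and Gm9134 (97.8% over 551 bases). They held 11.3%, 9.29% and 7.46% of the summed counts in saline and 9.02%, 9.06% and 9.07% in carnosine. The sum changed by -0.11 on the log2 scale and was not called (SE 0.03, edgeR adjusted p = 0.0610). Srsf11 (ENSMUSG00000055436, chr3:158010473-158036639, minus strand) was read at 267, 285 and 249 CPM in saline and 242, 250.1 and 224 CPM in carnosine. Carnosine library 2 lay just above saline library 3, so the groups overlapped, and the log2 fold change of -0.16 was not called (SE 0.06, edgeR adjusted p = 0.10). Srsf11 was called lower in 1 of 18 alternatives, the fit with the replicate number as a block (edgeR adjusted p = 0.0315).

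Srsf1, Srsf2 and Srsf9 were not called in either direction. Srsf1 is the founding member of the family and an essential constitutive and alternative splicing factor, Srsf9 is its closest relative, and Srsf2 binds exonic enhancers and stays mostly in the nucleus. Srsf2 (ENSMUSG00000034120, chr11:116849901-116853094, minus strand) was read at 469, 429.9 and 462 CPM in saline and 418, 472 and 441 CPM in carnosine. The highest library of all was carnosine and so was the lowest, and the log2 fold change was -0.03 (95% interval -0.15 to 0.09, edgeR adjusted p = 0.702). Srsf1 (ENSMUSG00000018379, chr11:88047373-88053755, plus strand) was read at 179, 158 and 153 CPM in saline and 177, 162 and 158 CPM in carnosine. The groups covered nearly the same range, with a log2 fold change of 0.02 (95% interval -0.14 to 0.18, edgeR adjusted p = 0.868). These intervals exclude falls of the size seen for Srsf3 and Srsf7, but not a fall as small as that of Srsf5.

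Srsf9 (ENSMUSG00000029538, chr5:115327177-115333080, plus strand) was the one member whose carnosine libraries all lay above saline. It was read at 52.0, 44.4 and 54.1 CPM in saline and 58.9, 58.5 and 56.9 CPM in carnosine. Saline library 2 was low, and the saline coefficient of variation was 10.2% against 1.77% in carnosine. The log2 fold change of 0.21 was not called (SE 0.08, edgeR adjusted p = 0.106), nor was it in any of 18 alternatives (adjusted p from 0.0817 to 0.246). In all, 6 members had every carnosine library below saline, beside 19.0% of all genes tested, and 1 had every carnosine library above, beside 19.7%.

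**Figure D3:**
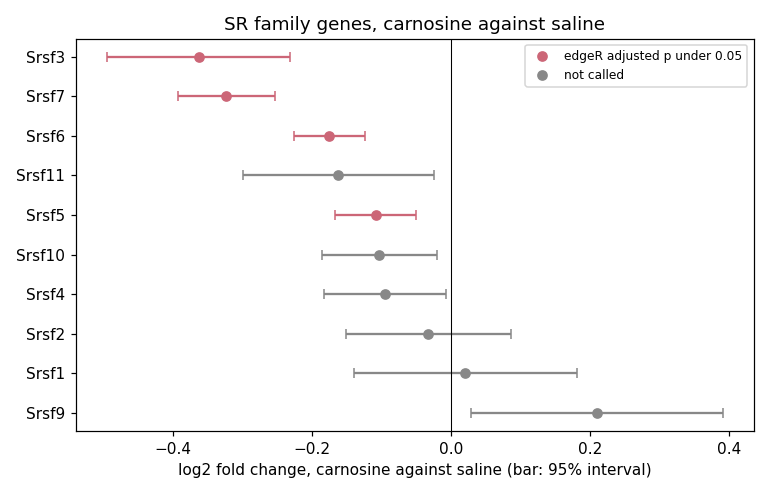
Log2 fold change (carnosine over saline, horizontal axis) of the 10 SR family genes, with bars for the 95% interval, and the calls marked. Values run from -0.36 for Srsf3 to 0.21 for Srsf9, and only Srsf3, Srsf5, Srsf6 and Srsf7 were called.

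Several SR genes overlap other annotated genes. Srsf2 lies within the antisense gene Mettl23, which had 176 to 283 counts against 4427 to 6096 for Srsf2, and it shares 655 bases with antisense Mfsd11 (150 to 234 counts). Neither was called, with log2 fold changes of -0.03 for Mettl23 and -0.10 for Mfsd11. Gm12992, antisense to part of Srsf4, had 241, 21 and 287 counts in saline and 13, 191 and 242 in carnosine, and was low in 1 library of each group. Gm11508, antisense to Srsf1, had 6 to 11 counts, and Gm43362, inside Srsf11, had 33 to 57. The library kit marks strand, but the strand setting used in counting was not given in the sources used here.

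Levels can be compared between genes only per length, and the length used mattered. In the deposited FPKM (fragments scaled to gene length and library total), the order in saline was Srsf6 (80.9), Srsf2 (77.1), Srsf5 (62.4), Srsf7 (46.6), Srsf4 (40.9), Srsf3 (25.3), Srsf9 (18.5 to 22.6 over the 3 libraries), Srsf11 (15.2), Srsf1 (14.4) and Srsf10 (11.4). The only neighbours whose ranges overlapped in saline were Srsf11 and Srsf1. The length behind these values equals the sum of all distinct annotated exons within 1 base for 97.5% of 14098 genes with at least 100 counts. Overlapping exons are counted more than once in that sum, so genes with many annotated forms appear lower. Its ratio to the union of exons had a median of 1.32 over those genes and ran from 1.29 (Srsf4) to 2.69 (Srsf5) among the SR genes.

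On the exon union, Srsf5 moved from the third place in saline to the first, with 168 ± 3.21 FPKM (SD, n = 3). Srsf2 followed with 153 ± 7.09, then Srsf6 with 124 ± 1.55 and Srsf7 with 114 ± 3.54. A clear step separated these from Srsf4 (52.8 ± 1.69) and Srsf3 (48.6 ± 3.18), whose ranges overlapped. The union takes in exons of every annotated form, retained introns among them (4 such transcripts for Srsf3). Counts assigned to copies are left out, so the order of Srsf3 and Srsf4 is uncertain. Srsf11 (31.6 ± 2.13), Srsf9 (30.3 ± 3.10) and Srsf1 (28.6 ± 2.47) overlapped in order, and Srsf10 was lowest with 17.0 ± 0.408. In carnosine, Srsf5 (155) and Srsf2 (149) overlapped, Srsf7 stood at 90.8 and Srsf3 at 37.6, and Srsf9 (34.3 to 35.5) moved above Srsf1 (28.9) and Srsf11 (28.1). The length is the same in both groups and does not enter the fold changes.

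**Figure D4:**
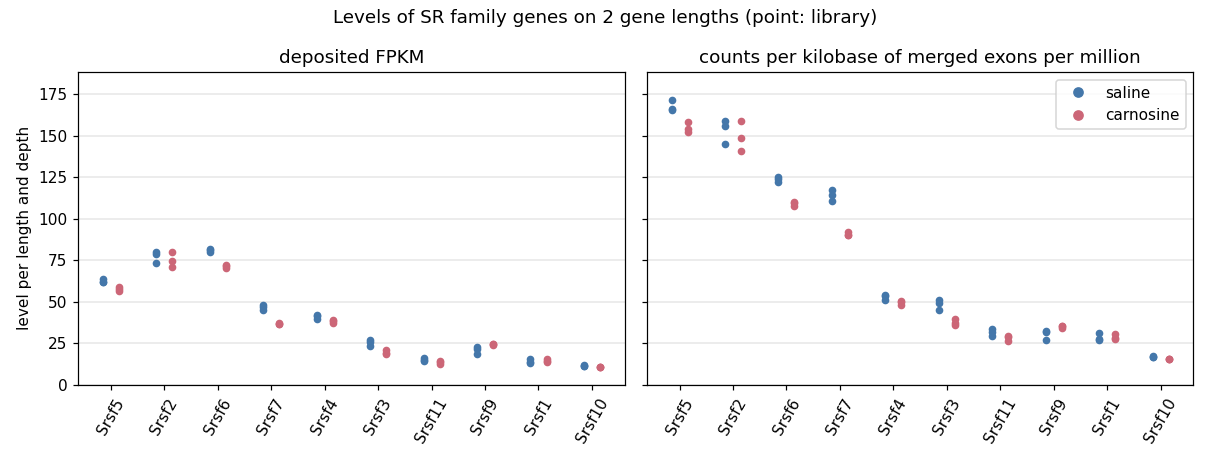
Level of each SR family gene per kilobase on the deposited length and on the union of exons (vertical axis, FPKM), for the 3 saline and 3 carnosine libraries; each point is 1 library. Srsf5 rises from the third place on the deposited length to the first on the exon union in saline.

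The spread between libraries differed between members. In saline the coefficient of variation of CPM ran from 1.29% (Srsf6) to 10.2% (Srsf9), and in carnosine from 0.467% (Srsf10) to 6.09% (Srsf2). The 4456 genes of the same level range had medians of 3.48% and 3.38%. Srsf1 (8.53% and 6.02%) and Srsf11 (6.69% and 5.63%) were above these medians in both groups, as were Srsf2 (4.59% and 6.09%) and Srsf3 (6.65% and 5.32%). Srsf4, Srsf5, Srsf6, Srsf7 and Srsf10 were below them in both groups, and Srsf9 was above in saline and below in carnosine.

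The genes whose profile over the 6 libraries was closest to that of Srsf3, the member with the largest fold change, were Vps18, Cep85l and Fchsd2. Likeness was measured as the root mean square distance of centred log2 CPM among the 6689 genes whose average log2 CPM was 5 or more. The distances were 0.02 for Vps18, 0.04 for Cep85l and 0.04 for Fchsd2, against 0.07 for Srsf7, the nearest SR gene. Their log2 fold changes were -0.38 (edgeR adjusted p = 0.00655), -0.33 (0.0230) and -0.32 (0.00201). The Cep85l call was lost without saline library 2 or 3 or carnosine library 1 or 3 (adjusted p from 0.0566 to 0.0717). A shared profile over 6 libraries that differ mainly by treatment says nothing of function.

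The SR-related proteins, which carry arginine and serine repeats but are not classical SR proteins, included several genes that fell. Of 23 listed, 20 were tested, and 10 fell (50%) and 0 rose by edgeR. The share called lower was 8.39% of all genes and 12.2% in the SR members' level range. The median log2 fold change of the list was -0.21. At an unadjusted p under 0.05, 12 were lower and 0 higher, and both DESeq2 and limma-voom called 9 lower and 0 higher. Tra2b, a partner of SR proteins on exonic enhancers, went from 359, 353 and 366 CPM in saline to 297, 290.3 and 292 CPM in carnosine (log2 fold change -0.30, edgeR adjusted p = 0.000404). Rbm39, a U2AF-related coactivator, fell from 620 ± 12.8 to 525 ± 11.3 CPM (SD, n = 3 each; -0.24 on the log2 scale). Srrm2, a scaffold of nuclear speckles, fell from 488 ± 12.8 to 414 ± 9.39 CPM, and Scaf1 from 162 ± 1.28 to 138 ± 2.08 CPM (SD, n = 3 each).

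Among the 9 tested kinases and importer of SR proteins, Clk1, Clk4 and Prpf4b fell (33.3%) and 0 rose. The share called lower was 8.39% of all genes and 12.2% in the SR members' level range. The median log2 fold change of the list was -0.13. At an unadjusted p under 0.05, 5 were lower and 0 higher, DESeq2 called 2 lower and 0 higher, and limma-voom 3 lower and 0 higher. Clk1, a nuclear kinase of SR proteins, was read at 403, 411 and 419 CPM in saline and 308, 312 and 308 CPM in carnosine. Its log2 fold change was -0.41 (SE 0.03, edgeR adjusted p = 6.95e-05), larger in size than that of any SR gene. Clk4 fell from 116 ± 0.149 to 93.2 ± 2.33 CPM (SD, n = 3 each; -0.32 on the log2 scale). The Prpf4b call (-0.12, edgeR adjusted p = 0.0239) was lost without saline library 1 or 2 or any 1 carnosine library (0.0685 to 0.077). Clk2 (-0.22), Clk3 (-0.13), Srpk2 (-0.13), Srpk1 (-0.02), Dyrk1a (-0.02) and Tnpo3 (0.12) were not called.

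The hnRNP and PTB proteins, which often oppose SR proteins at exons, included genes that rose and genes that fell. Of 26 tested, 11 rose (42.3%) and 4 fell (15.4%) by edgeR. Among all genes tested, 9.51% were called higher and 8.39% lower, and in the SR members' level range 17.9% and 12.2%. The median log2 fold change of the list was 0.10, and DESeq2 called 8 higher and 2 lower. Hnrnpa1, an antagonist of Srsf1 in splice site choice, was read at 642, 648 and 655 CPM in saline and 739, 751 and 742 CPM in carnosine (log2 fold change 0.20, edgeR adjusted p = 0.000719). Hnrnpab (0.29), Ptbp3 (0.21) and Hnrnpa2b1 (0.17) rose too, while Ptbp2 (-0.37), Hnrnpu (-0.28), Hnrnph3 (-0.21) and Hnrnph1 (-0.11) fell. Leaving out 1 library left 9 or 10 genes higher and 1 to 3 lower: 1 lower without saline library 1 or 3 or carnosine library 3, and 2 without saline library 2 or carnosine library 2.

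Among the core machinery that SR proteins recruit, the share of U1 and U2 genes called higher was 9.52% and that called lower 4.76%, against 9.51% and 8.39% of all genes. In the SR members' level range, 17.9% of genes were called higher and 12.2% lower. Of 21 U1 and U2 genes, Sf3a1 (0.19) and Sf3b3 (0.15) rose and Snrnp70 (-0.14), whose protein binds SR tails within U1, fell by edgeR. DESeq2 called 0 of these in either direction, and at an unadjusted p under 0.05 there were 4 higher and 4 lower. The Snrnp70 call was lost without saline library 2 or 3 or carnosine library 1 or 2 (edgeR adjusted p from 0.0613 to 0.0889), and that of Sf3b3 without any 1 saline library or carnosine library 1 or 2 (0.0566 to 0.0937). Of 27 Sm core and tri-snRNP genes (median log2 fold change 0.16), 17 were higher and 1 lower at an unadjusted p under 0.05. By edgeR adjusted p, 0 fell and 12 rose (44.4%, beside 9.51% of all genes and 17.9% in the SR members' level range). That count fell to 4 with DESeq2, to 3 without saline library 1 or carnosine library 3, to 4 without saline library 2 or 3 or carnosine library 1, and to 8 without carnosine library 2. Snrpe (0.33, edgeR adjusted p = 0.00967) kept its call in all 18 alternatives, whereas those of Snrpf (0.30), Snrnp40 (0.20) and Prpf8 (0.11) were each lost without 4 of the 6 libraries. For Snrpf these were saline 1 and 3 and carnosine 1 and 3 (edgeR adjusted p from 0.0570 to 0.0623), for Snrnp40 saline 1 and 2 and carnosine 1 and 2 (0.0621 to 0.0696), and for Prpf8 saline 1 and 2 and carnosine 1 and 3 (0.0595 to 0.0697).

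Of the exon junction and decay genes, 1 of 15 was called lower (6.67%) and 0 higher. Of the export genes, 1 of 15 was called higher (6.67%) and 0 lower. Among all genes tested, 8.39% were called lower, 9.51% higher and 17.9% in either direction. In the SR members' level range, 12.2% of genes were called lower and 17.9% higher. Of 15 exon junction and nonsense-mediated decay genes, Smg1, the kinase that triggers decay, fell from 436 ± 12.9 to 347 ± 17.0 CPM (SD, n = 3 each; log2 fold change -0.33, edgeR adjusted p = 0.00192). None of the 15 rose by edgeR, DESeq2 or limma-voom, and 0 were higher and 3 lower at an unadjusted p under 0.05. Of 15 mRNA export genes, Thoc3 (0.24, edgeR adjusted p = 0.0255) rose and 0 fell, and that call was lost with DESeq2 and without any 1 saline library or carnosine library 2 or 3 (0.0553 to 0.0757). At an unadjusted p under 0.05, 1 export gene was higher and 1 lower, and neither DESeq2 nor limma-voom called one lower.

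Over the 133 tested splicing genes outside the SR family, 26 rose (19.5%) and 19 fell (14.3%), with a median log2 fold change of 0.00. Among all genes tested, 9.51% were called higher and 8.39% lower, and in the SR members' level range 17.9% and 12.2%. The splicing lists were not limited to that range. The SR family had 4 of 10 genes called lower and none higher, beside 19 lower and 26 higher among these 133. The 133 include the SR-related proteins (10 of 20 lower, 0 higher) and the kinases and importer (3 of 9 lower, 0 higher). Calls in 1 direction only were thus not particular to the SR family. The difference between the SR family and the 133 was not tested. The plot of splicing gene lists shows every gene of each list.

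**Figure D5:**
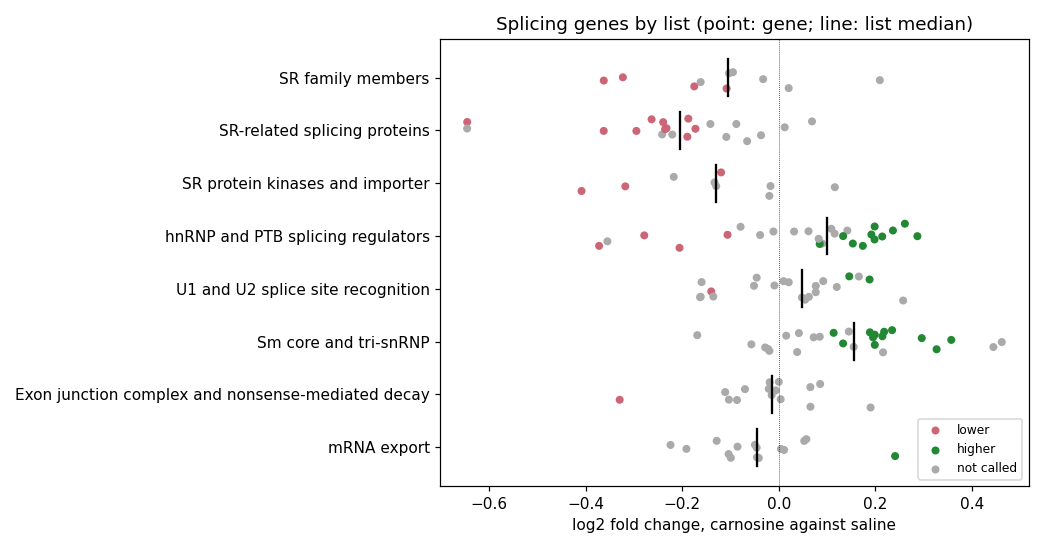
Log2 fold change (carnosine over saline) of every tested gene in the SR family and the 7 other splicing lists; each point is 1 gene and the called genes are marked. The SR family, the SR-related proteins and the kinases lie mostly below 0 (medians -0.11, -0.21 and -0.13), and the Sm core and hnRNP lists mostly above (medians 0.16 and 0.10).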

How the data were processed

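The authors deposited one table of the whole series with a read count and an FPKM value per gene for each of 6 LT-HSC libraries (3 saline, 3 carnosine), per the file headers. Per the labels' protocols, libraries were poly-A selected, stranded and paired-end. Build GRCm38 and the tools HISAT2, StringTie, edgeR and CASAVA 1.8 are listed, without roles or options, per the submitters' processing notes. The deposited FPKM values served for levels between genes and as an alternative on log2(FPKM + 1) or log2(FPKM + 0.1).

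Counts were tested with edgeR 4.0.16 (R 4.3.3; filterByExpr, TMM, quasi-likelihood test) on 15298 genes, with Benjamini-Hochberg adjustment and a threshold of 0.05. The comparison was carnosine against saline, with no covariate. DESeq2 1.42.0 and limma 3.58.1 were alternatives, as were other scalings, filters, a length trend, the replicate number as a block and leaving out each library. CPM used the TMM-scaled totals of the tested genes. Copies were found with BLAST 2.17.0 at 95% identity over 200 bases against GENCODE M21. The fit was also run on counts simulated from edgeR's own model of these data, which cannot show that the calls hold for these libraries.

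The text names all 10 members, up to 4 called genes with the smallest p from each other splicing list, the 3 genes closest to the member with the largest fold change, and copies or antisense transcripts of members. Uncalled kinases, the other hnRNP genes that fell and overlapping sense transcripts were named after their values were seen. The members and lists were chosen with earlier results of these data known. Depth was 10304539 to 13251332 counts per library and 457 to 8719 counts per member, for a counting error of 1.16% to 4.26%. The spread between libraries was below that counting error in 5 of the 20 pairs of member and group (Srsf10 in both groups, Srsf6, Srsf7 and Srsf9 in carnosine), so such small spreads may be chance. Over all tested genes, same-numbered libraries did not vary together (correlations -0.0495, -0.0686 and 0.0188), so the numbers were not taken to pair samples. Single genes were not examined in this way.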

Additional observations from a re-analysis of the deposited data

How the results depend on the processing

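Of the 10 members, none changed direction among called values over 18 alternatives, and Srsf3, Srsf6 and Srsf7 kept their calls in all of them (log2 fold changes from -0.41 to -0.23, -0.18 to -0.16 and -0.35 to -0.30). Srsf1 and Srsf2, not called in any, ranged across 0 (-0.03 to 0.09 and -0.08 to 0.01). Between 3 and 4 members were called lower and 0 higher under every alternative, and the members' median log2 fold change stayed between -0.11 and -0.09. The summed SR level had a log2 ratio of -0.15, of -0.13 from the deposited FPKM with either pseudocount, and between -0.17 and -0.14 with 1 library left out. DESeq2 called fewer genes, 772 higher and 764 lower against 1455 and 1283 by edgeR, and 12 other splicing genes higher against 26. With 1 library left out, edgeR called 932 to 1009 genes higher and 801 to 883 lower, and 13 to 19 other splicing genes higher and 12 to 16 lower. The cause of the lower counts with DESeq2 was not tested, and leaving out a library removes 1 of 6 samples. The replicate number as a block, which the labels do not tie to a shared animal or batch, gave 946 genes higher and 810 lower, 14 other splicing genes higher and 15 lower, and 4 members lower and 0 higher. In that blocked fit the adjusted p was 0.0628 for Srsf5 and 0.0315 for Srsf11. Removing a trend of length or of length and GC content, and adding the copies to the members, were also tried, the last 2 chosen after seeing the data. With 3 libraries a group, falls as small as that of Srsf5 sit at the limit of what the spread lets the test call, and isoforms and reads shared between loci cannot be resolved from counts per gene.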
